A study of Mus musculus with 23 samples.

Results

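Dclk1, Pou2f3, Trpm5, Gnat3, Avil, Sh2d6, Alox12e, Chil4 and Gfi1b were followed as a set of 9 tuft cell genes, given by name, among the 55487 genes of a raw count table from whole mouse jejunum. The set was read across genotype and treatment with 1 question: whether the level of tuft cell transcripts moved with the type 2 response to food allergen or with the genotype. Of the 9 genes, 7 had enough reads to be tested, beside 17236 genes tested in all, while Gnat3 and Chil4 were too low. Values are in CPM, read counts scaled to a common library size, with TMM factors that correct for differences in library composition.

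Tuft cells are rare epithelial cells of the intestine that sense luminal signals with proteins of the taste pathway, a G protein that opens the cation channel TRPM5 through calcium release. In mouse intestine they release IL-25, which drives innate lymphoid cells to make IL-13, and IL-13 in turn acts on epithelial progenitors so that more tuft and goblet cells form. They also make leukotrienes and prostaglandins, and their formation depends on the transcription factor POU2F3.

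RNA was sequenced from jejunum with fat and Peyer's patches removed, in 11 libraries of Cpa3Cre/+ mice and 12 libraries of Cpa3+/+ (wild type) mice. Cpa3Cre/+ mice carry Cre in the Cpa3 locus, which encodes a mast cell protease, and are labelled mast cell-deficient. Mice of each genotype were naive, immunized, or immunized and challenged for 1, 3 or 5 days. Immunization was 25 µg ovalbumin with 2 mg alum, injected intraperitoneally on days 0 and 14. Challenged mice were offered, starting on day 20, plain water beside a solution of 20% egg white and 8% sugar, so that they could avoid the allergen. The naive, immunized, day 1, day 3 and day 5 groups held 2, 2, 2, 2 and 3 Cpa3Cre/+ libraries and 3, 2, 3, 2 and 2 Cpa3+/+ libraries. Of the 23 libraries, 18 were from female mice. The 5 male libraries were Cpa3Cre/+ naive replicate 2, immunized replicate 1, day 1 replicate 2 and day 3 replicate 2, and Cpa3+/+ naive replicate 3. The ages of the mice are not given here. Each group with a male library also held a female one, so its libraries stem from more than 1 mouse. For same-sex replicates the labels do not state whether they stem from separate mice. The p-values thus measure the spread between libraries, part of which may be technical.

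Total counts ran between 5476308 and 19342046 per library, with a median of 13809248, and 3 reads corresponded to 0.149 to 0.496 CPM. The targeted locus separated the genotypes: Cpa3 differed by -3.05 ± 0.40 log2 units (SE) between Cpa3Cre/+ and Cpa3+/+ over the 5 states, with an adjusted p of 0.01016 in edgeR. This call was lost in 4 of the 23 fits that left out 1 library each, with estimates of -2.74 to -3.32 in these. Epithelial markers (Epcam, Cdh1, Vil1, Cdx1 and Cldn7) were detected in every library, with summed levels between 2102 and 7401 CPM. Over all genes, 3 libraries stood apart: Cpa3Cre/+ naive replicate 1, Cpa3Cre/+ day 5 replicate 3 and Cpa3+/+ day 1 replicate 2. Cpa3Cre/+ naive replicate 1 held the lowest epithelial sum, 2102 CPM, and the highest smooth muscle sum, 3435 CPM, of all 23 libraries. B cell follicle markers (Cr2, Fcer2a, Cxcr5 and Ms4a1) were uneven among the immunized libraries. They summed to 56.3 and 1.22 CPM in Cpa3+/+ replicates 1 and 2, and to 2.26 and 48.9 CPM in Cpa3Cre/+ replicates 1 and 2. The next highest sum was 19.1 CPM, in Cpa3Cre/+ day 1 replicate 2. The part of follicle tissue in the comparisons with immunized mice was not tested.

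The promoters of Avil, Sh2d6 and Trpm5 are shown because the levels of these genes varied together from library to library, as described further on. Each is 300 bases in length, 250 before to 50 after the transcription start, taken from RefSeq on GRCm38.p6 and written 5′ to 3′ on the strand of the gene. They lie at chr10:127000459-127000758 (plus strand, Avil), chr6:72519987-72520286 (minus strand, Sh2d6) and chr7:143094593-143094892 (minus strand, Trpm5). Capitals mark the core of the octamer bound by POU factors, searched as ATGCAA and its reverse complement TTGCAT.
Avil: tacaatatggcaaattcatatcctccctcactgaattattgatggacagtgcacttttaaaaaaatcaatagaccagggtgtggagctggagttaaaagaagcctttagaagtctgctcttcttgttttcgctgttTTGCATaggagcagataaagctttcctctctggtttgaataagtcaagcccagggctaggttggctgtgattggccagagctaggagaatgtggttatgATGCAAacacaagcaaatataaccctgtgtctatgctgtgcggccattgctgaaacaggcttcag
Sh2d6: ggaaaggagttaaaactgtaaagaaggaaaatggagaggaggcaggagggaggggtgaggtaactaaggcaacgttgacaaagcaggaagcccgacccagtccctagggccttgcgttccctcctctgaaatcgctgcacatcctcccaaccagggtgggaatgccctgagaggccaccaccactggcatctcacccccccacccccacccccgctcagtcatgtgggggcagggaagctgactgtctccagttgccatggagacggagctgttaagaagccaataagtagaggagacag
Trpm5: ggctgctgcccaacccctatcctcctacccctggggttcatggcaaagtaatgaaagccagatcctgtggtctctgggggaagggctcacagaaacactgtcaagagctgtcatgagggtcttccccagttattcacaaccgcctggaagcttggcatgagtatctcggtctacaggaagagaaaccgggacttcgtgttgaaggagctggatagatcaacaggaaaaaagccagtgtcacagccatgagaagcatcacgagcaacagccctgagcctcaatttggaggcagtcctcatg

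The table held promoters of 8 of the 9 genes; Pou2f3 was not among them. The full octamer, ATGCAAAT or its reverse complement ATTTGCAT, was in none of these windows and in 1.74% of all 32851 promoters of this length. The shorter core, which is also contained in the octamer, occurred at 2 places in the Avil window and at 1 in that of Gnat3, and in 10.7% of all promoters. These are matches of letters in a window and not measured binding.

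Pou2f3 (ENSMUSG00000032015, chromosome 9, 43123939 to 43210369, minus strand, GRCm38), the regulator on which tuft cells depend, averaged 2.44 CPM. In Cpa3Cre/+ libraries it stood at 2.15 and 2.31 CPM in naive mice, 1.75 and 1.99 in immunized mice, 1.49 and 3.16 on day 1, 2.08 and 3.59 on day 3 and 5.28, 6.75 and 3.01 on day 5. In Cpa3+/+ libraries it stood at 1.82, 1.55 and 1.6 CPM in naive mice, 1.24 and 0.892 in immunized mice, 2.15, 1.40 and 1.22 on day 1, 2.78 and 2.11 on day 3 and 1.21 and 4.68 on day 5. The 3 highest of the 23 values were day 5 libraries, and the lowest was a Cpa3+/+ immunized library. By group mean, Cpa3Cre/+ day 5 came first at 5.02 ± 1.88 CPM (SD, n = 3) and Cpa3+/+ day 5 second at 2.94 ± 2.45 CPM (SD, n = 2), and these 2 groups overlapped.

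Trpm5 (ENSMUSG00000009246, chromosome 7, 143069153 to 143094642, minus strand) encodes the taste-pathway channel and averaged 9.83 CPM. Its values in Cpa3Cre/+ libraries were 4.49 and 7.75 CPM in naive mice, 8.23 and 10.5 in immunized mice, 8.62 and 8.01 on day 1, 8.81 and 10.9 on day 3 and 17.5, 21.3 and 15.6 on day 5. Its values in Cpa3+/+ libraries were 4.63, 11.1 and 8.94 CPM in naive mice, 7.11 and 6.0 in immunized mice, 8.77, 6.06 and 7.09 on day 1, 13.5 and 10.2 on day 3 and 3.46 and 17.4 on day 5. All 3 Cpa3Cre/+ day 5 libraries lay above every library of the earlier states, while the Cpa3+/+ day 5 libraries held the lowest of all 23 values and the third highest. Part of the gene overlaps Tssc4 on the opposite strand, and the strand setting of the counting was not given in the sources used here, so reads of the overlap could belong to either gene.

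Avil (ENSMUSG00000025432, chromosome 10, 127000709 to 127020994, plus strand) encodes advillin, an actin-bundling protein of the tuft cell's apical bristle, and averaged 9.27 CPM. Cpa3Cre/+ libraries held 5.27 and 6.64 CPM in naive mice, 7.64 and 9.24 in immunized mice, 6.51 and 9.48 on day 1, 8.60 and 11.1 on day 3 and 15.6, 14.1 and 15.1 on day 5. Cpa3+/+ libraries held 7.11, 8.30 and 7.66 CPM in naive mice, 5.11 and 4.70 in immunized mice, 8.46, 11.3 and 7.09 on day 1, 12.9 and 10.2 on day 3 and 2.82 and 18.4 on day 5. The extremes of the whole series, 2.82 and 18.4 CPM, were the 2 libraries of the same group, Cpa3+/+ day 5. Avil overlaps Tsfm on the opposite strand, with the same limit as for Trpm5.

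Sh2d6 (ENSMUSG00000052631, chromosome 6, 72513641 to 72521707, minus strand), a gene for an SH2-domain adaptor found in tuft cells, averaged 10.3 CPM. Its Cpa3Cre/+ values were 4.10 and 6.04 CPM in naive mice, 10.6 and 10.5 in immunized mice, 7.76 and 9.33 on day 1, 9.23 and 14.0 on day 3 and 16.7, 18.3 and 15.4 on day 5. Its Cpa3+/+ values were 6.61, 9.17 and 6.30 CPM in naive mice, 4.76 and 3.73 in immunized mice, 10.1, 20.7 and 6.94 on day 1, 15.6 and 10.1 on day 3 and 2.41 and 17.5 on day 5. The highest value, 20.7 CPM, came from Cpa3+/+ day 1 replicate 2, one of the libraries that stood apart over all genes, and the lowest again from Cpa3+/+ day 5 replicate 1. Per kilobase of exon, Sh2d6 was the most abundant of the 9 genes at a mean of 6.07 CPM per kb, ahead of Avil at 2.73 and Trpm5 at 1.54. This scale divides by all annotated exons of a gene, whether or not jejunum uses them, so it compares genes only roughly.

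**Figure D1:**
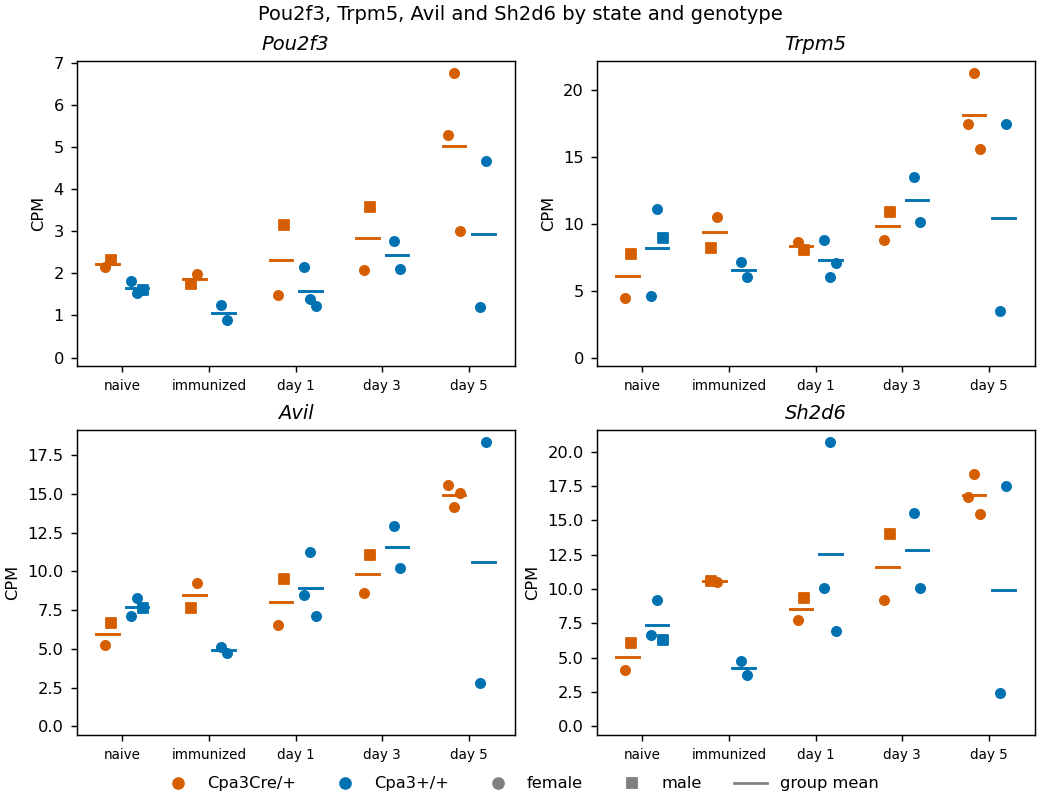
Level of Pou2f3, Trpm5, Avil and Sh2d6 in CPM (y axis) in each of the 23 libraries, by state (x axis), with Cpa3Cre/+ in orange left of Cpa3+/+ in blue. Circles are female and squares male libraries, and bars are group means without error bars; on day 5 the 3 Cpa3Cre/+ libraries sit between 15.6 and 21.3 CPM for Trpm5, with the 2 Cpa3+/+ libraries at 3.46 and 17.4 CPM.

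Dclk1 (ENSMUSG00000027797, chromosome 3, 55242364 to 55539068, plus strand), a doublecortin-like kinase widely used as a tuft cell marker and also made by neurons, did not follow the same order. Its mean was 10.4 CPM over the series, or 0.682 CPM per kb over 15296 bases of annotated exons. Cpa3Cre/+ libraries held 19.2 and 6.74 CPM in naive mice, 8.66 and 9.55 in immunized mice, 7.76 and 8.30 on day 1, 6.94 and 10.6 on day 3 and 17.9, 22.8 and 7.62 on day 5. Cpa3+/+ libraries held 14.2, 13.7 and 10.1 CPM in naive mice, 9.74 and 6.0 in immunized mice, 5.92, 6.34 and 8.08 on day 1, 9.30 and 7.70 on day 3 and 7.89 and 14.8 on day 5. The second highest value, 19.2 CPM, belonged to Cpa3Cre/+ naive replicate 1, where Trpm5, Avil and Sh2d6 lay between 4.10 and 5.27 CPM. That library also held the largest sums of enteric neuron markers, 117 CPM over 7 genes, and of enteric glia markers, 26.7 CPM over 4 genes, with all 11 markers detected; the part of nerve RNA in Dclk1 was not tested beyond the fit with a muscle and nerve covariate given further on.

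The remaining genes were scarce. Gfi1b (ENSMUSG00000026815, chromosome 2), a transcriptional repressor of tuft cells and of blood cell precursors, had 141 reads in all, a mean of 0.464 CPM and a range of 0 to 1.13 CPM. On day 5, Cpa3Cre/+ jejunum held 0.819, 0.556 and 1.13 CPM of it, and Cpa3+/+ jejunum 0.0805 and 1.07 CPM. Alox12e (ENSMUSG00000018907, chromosome 11), an epidermal-type lipoxygenase, had 80 reads in all and at most 0.799 CPM, with 4 libraries at 0. Gnat3 (ENSMUSG00000028777, chromosome 5), the taste G protein gustducin, had 15 reads in all, at most 2 in any library, and 13 libraries at 0. At this depth no difference in Gnat3 was detectable, because 3 reads already equal 0.149 to 0.496 CPM.

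Chil4 (ENSMUSG00000063779, chromosome 3), a secreted chitinase-like protein known from type 2 inflammation of mouse mucosa, was a single-library signal. Of its 35 reads, 30 came from Cpa3Cre/+ day 5 replicate 2, at 2.38 CPM, and 17 libraries had none. The other Cpa3Cre/+ day 5 libraries stood at 0.0744 and 0 CPM and both Cpa3+/+ day 5 libraries at 0. Its close relative Chil3 had 1 read in the library with the 30 reads, and its highest level in the series was 0.694 CPM in Cpa3Cre/+ day 3 replicate 1. Reads of these similar genes can be assigned to either copy.

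**Figure D2:**
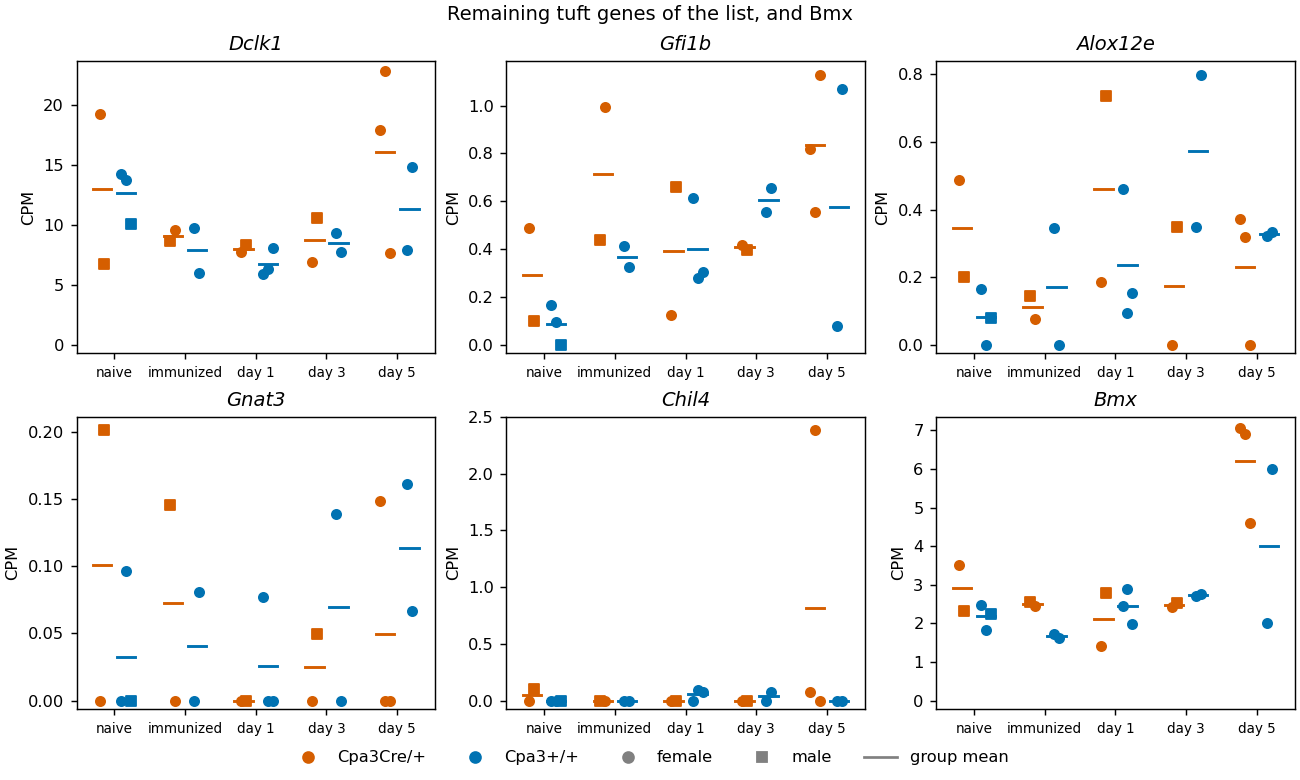
Level in CPM (y axis) of Dclk1, Gfi1b, Alox12e, Gnat3 and Chil4, and of the further tuft gene Bmx, in each library by state (x axis), Cpa3Cre/+ in orange left of Cpa3+/+ in blue. Circles are female and squares male libraries, and bars are group means. The Chil4 panel holds 1 library at 2.38 CPM with all others near 0. Bmx is highest in the Cpa3Cre/+ day 5 libraries and in Cpa3+/+ day 5 replicate 2, but not in replicate 1 of that group.

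Differences were tested with edgeR in 1 model of the 10 groups with sex as a covariate, adjusted over all 17236 genes with a threshold of 0.05. None of the 7 tested tuft genes passed in any of the 19 comparisons, in which the share of all genes called was 1.94% for day 5 against immunized, 0.0348% for the same within Cpa3Cre/+, 0.029% for the genotypes over the 5 states and 0% in the others. Among the 133 single tests, 13 had an unadjusted p under 0.05. DESeq2 in place of edgeR called 1 gene, Pou2f3, on day 5. In whole tissue, fewer tuft cells and less RNA per tuft cell cannot be told apart, so each value below is a level of transcript in the jejunum.

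The allergen response was read first as day 5 against immunized, averaged over both genotypes. Of all genes, 1.94% were called in this comparison (334 of 17236, with 0.557% higher and 1.38% lower), and 0 of the 7 tuft genes were. Pou2f3 came nearest, with a log2 fold change of 1.52 ± 0.39 (SE, 95% interval 0.70 to 2.34) and an adjusted p of 0.05185 in edgeR. Avil differed by 1.01 ± 0.35, Sh2d6 by 1.00 ± 0.42 and Trpm5 by 0.85 ± 0.36 log2 units, with adjusted p-values of 0.1438, 0.2259 and 0.226 in edgeR. Dclk1 differed by 0.61 ± 0.33 and Gfi1b by 0.37 ± 0.61 log2 units. All 7 estimates were above 0, with a median of 1.00, whereas over all genes 52.2% were above 0, with a median of 0.02. At an unadjusted p under 0.05 stood 4 of the 7 genes and 17.3% of all genes. These 4, Pou2f3, Trpm5, Avil and Sh2d6, varied together over the libraries (r of 0.680 to 0.949), so they do not count as separate cases.

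These day 5 values depended on single libraries, above all on the 2 of Cpa3+/+ day 5, which lay at opposite ends of the series. Without Cpa3+/+ day 5 replicate 1, Pou2f3 rose by 1.83 ± 0.35 and Avil by 1.38 ± 0.22 log2 units, with adjusted p-values of 0.03688 and 0.01474 in edgeR. Without replicate 2, the estimates were 0.87 for Pou2f3, 0.03 for Trpm5, 0.04 for Avil and -0.04 for Sh2d6, and no tuft gene was called. Pou2f3 also passed, with estimates of 1.51 to 1.64 and adjusted p-values of 0.01371 to 0.04311 in edgeR, without Cpa3+/+ day 1 replicate 2, Cpa3Cre/+ naive replicate 1, Cpa3Cre/+ naive replicate 2 or Cpa3Cre/+ day 5 replicate 3. In the other fits that left out 1 library, Pou2f3 was not called. Its estimates were 1.64 without Cpa3+/+ immunized replicate 1 and 1.40 without replicate 2 of that group. Where 1 library of a group was left, it was assumed to vary like the other groups. The summed epithelial markers were close in replicates 1 and 2 of that group, at 4219 and 4251 CPM, as were the smooth muscle markers, at 1227 and 1122 CPM. Mast cell markers (Cpa3, Mcpt1, Mcpt2, Fcer1a and Ms4a2) summed to 90.6 CPM in replicate 1 and 570 CPM in replicate 2, and macrophage markers (Adgre1, Cd68, Csf1r, Mrc1 and C1qa) to 92.0 and 189 CPM. The part of these cells in the tuft gene values was not tested.

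Libraries were also compared one by one within each genotype. In Cpa3Cre/+ mice, Pou2f3, Trpm5, Avil and Sh2d6 were higher in all 3 day 5 libraries than in both immunized libraries, which 14% of all tested genes were. In Cpa3+/+ mice, 0 of the 7 genes separated day 5 libraries upward, against 26.9% of all genes. On day 3 against immunized, 6 of the 7 genes lay higher in both Cpa3+/+ libraries, with Dclk1 the exception, against 33.2% of all genes. In the same comparison in Cpa3Cre/+ mice, Pou2f3 lay higher in both libraries, against 25.9% of all genes, and Gfi1b lower, against 26% of all genes. None of the 7 genes was called in these comparisons by edgeR, where the share of all genes called was 0.0348% for Cpa3Cre/+ day 5 and 0% for the others.

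Pou2f3 differed between day 5 and immunized by 1.59 ± 0.53 log2 units (SE) in Cpa3Cre/+ and by 1.46 ± 0.57 in Cpa3+/+ mice. Trpm5 differed by 1.02 ± 0.49 in Cpa3Cre/+ and by 0.68 ± 0.51 in Cpa3+/+ mice. Avil differed by 0.90 ± 0.49 in Cpa3Cre/+ and by 1.12 ± 0.51 in Cpa3+/+ mice, and Sh2d6 by 0.77 ± 0.58 and 1.23 ± 0.61 in the same order. The difference of the responses between genotypes, tested as an interaction, was 0.13 ± 0.79 for Pou2f3, 0.34 ± 0.71 for Trpm5, -0.21 ± 0.70 for Avil and -0.47 ± 0.83 for Sh2d6, each with an adjusted p of 1 in edgeR and 0% of all genes called. The 95% intervals of all 4 genes cross 0, at -1.53 to 1.78 for Pou2f3 and -2.21 to 1.27 for Sh2d6, and leave room for a response that is larger in either genotype.

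Averaged over both genotypes, the earlier days gave lower medians over the 7 genes than day 5. On day 3 against immunized, Pou2f3 differed by 0.87 ± 0.39, Sh2d6 by 0.86 ± 0.42, Avil by 0.72 ± 0.36 and Trpm5 by 0.45 ± 0.36 log2 units (SE), with a median of 0.72 over the 7 genes and 0% of all genes called by edgeR. Within Cpa3Cre/+ mice the median was 0.12 on day 3 and 0.90 on day 5, and within Cpa3+/+ mice 1.18 and 0.82. The value of 0.82 was the estimate of Alox12e, which had 80 reads in all. Without Alox12e and Dclk1, the Cpa3+/+ medians were close, at 1.181 on day 3 and 1.115 on day 5. In Cpa3+/+ mice, Pou2f3 and Dclk1 had higher estimates on day 5 than on day 3, and the other tested tuft genes lower ones. The interaction on day 3 was below 0 for all 7 genes, with a median of -1.0, whereas 49.4% of all genes were above 0. None was called by edgeR (adjusted p = 0.9997 each), and the day 3 groups share the immunized libraries with the other days. By mean, Cpa3+/+ immunized was the lowest of the 10 groups for Pou2f3, Avil and Sh2d6, and ranked 8 or 9 for the other tested tuft genes. Cpa3Cre/+ against Cpa3+/+ had a median over the 7 genes of 0.63 in immunized mice, with 6 above and 1 below 0. On day 3 this median was -0.33, with 2 above and 5 below 0. The part of the immunized libraries in the interaction was not tested. On day 1 against immunized, averaged over both genotypes, the 7 estimates had a median of 0.38 and 4 of them were above 0, again with 0% of all genes called. Immunization alone, against naive, gave estimates of -0.37 for Pou2f3, 0.18 for Trpm5, -0.04 for Avil, 0.17 for Sh2d6, 0.04 for Alox12e and -0.61 for Dclk1, with 0% of all genes called. Gfi1b had the largest estimate, 1.68 ± 0.78 (SE), with an adjusted p of 0.4384 in edgeR. The count of all genes called here, 0, depended on the libraries: it was 979 in female libraries, 627 without Cpa3Cre/+ naive replicate 2 and 43 without the 3 libraries apart. On day 1 Sh2d6 lay below both immunized libraries in both Cpa3Cre/+ libraries and above them in all 3 Cpa3+/+ libraries, which 21.1% and 13.2% of all tested genes did in that genotype and direction. The interaction was -1.87 ± 0.82 log2 units with an adjusted p of 0.8452 in edgeR.

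The genotype comparison, Cpa3Cre/+ against Cpa3+/+ averaged over the 5 states, called 0 of the 7 tuft genes and 0.029% of all genes (5 of 17236, all lower). Avil differed by 0.04 ± 0.24 log2 units (SE, 95% interval -0.47 to 0.54), Sh2d6 by 0.09 ± 0.29 (-0.52 to 0.70) and Trpm5 by 0.11 ± 0.24 (-0.40 to 0.62). Pou2f3 differed by 0.42 ± 0.26 (-0.13 to 0.98), Dclk1 by 0.30 ± 0.23 and Gfi1b by 0.65 ± 0.47. These intervals cover a genotype difference of up to about 1 log2 unit in Pou2f3 and do not show that the genotypes were alike. Without Cpa3+/+ day 5 replicate 1, Trpm5, Avil and Sh2d6 stood at -0.07, -0.15 and -0.10, and without replicate 2 at 0.39, 0.38 and 0.47, so their direction turned with 1 library. Dclk1 stood at 0.023 without Cpa3Cre/+ naive replicate 1, Pou2f3 at 0.26 without Cpa3+/+ day 5 replicate 1 and 0.64 without replicate 2, and Gfi1b at 0.27 without Cpa3Cre/+ naive replicate 1 and 1.17 without Cpa3+/+ day 5 replicate 2, none of them called. Mast cell markers moved with the genotype at the same time, 4 of 5 being called lower, with summed levels of 5.82 to 102 CPM in Cpa3Cre/+ and 13.2 to 570 CPM in Cpa3+/+ libraries. One of the 5 markers was at 0 in both Cpa3Cre/+ immunized libraries and in Cpa3+/+ naive replicate 1. Between genotypes in naive mice, 1 marker was above and 4 were below 0, none called. The markers also moved with the challenge. On day 5 against immunized, all 5 were above 0 within each genotype, none called. The median was 4.22 log2 units in Cpa3Cre/+ and 2.02 in Cpa3+/+ mice.

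**Figure D3:**
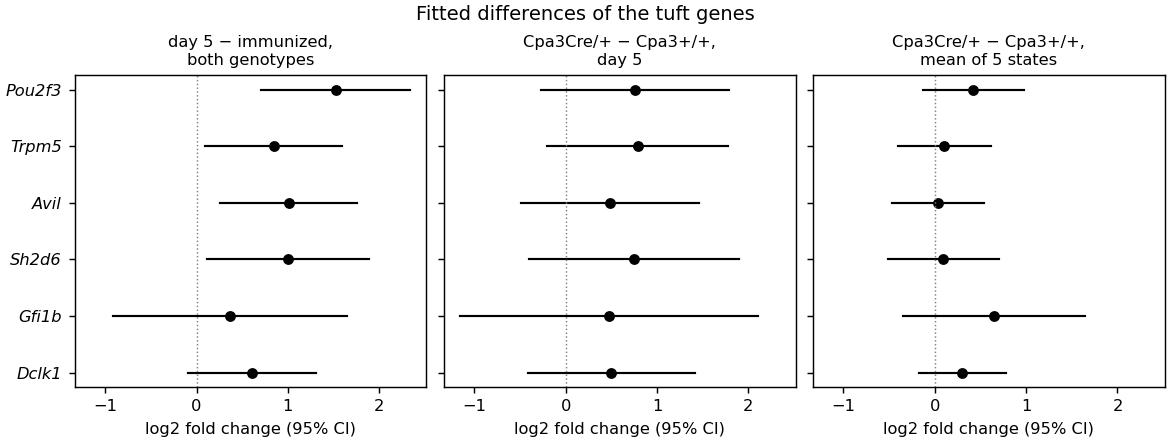
Log2 fold change (x axis, points) with 95% confidence interval (lines) of Pou2f3, Trpm5, Avil, Sh2d6, Gfi1b and Dclk1 (rows) for day 5 against immunized over both genotypes (left), Cpa3Cre/+ against Cpa3+/+ on day 5 (middle) and over the 5 states (right), from the edgeR model. For day 5 against immunized, the intervals of Pou2f3, Trpm5, Avil and Sh2d6 lie above 0 before adjustment, whereas every interval of the genotype panels crosses 0.

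State by state, the sign of the genotype difference varied. In immunized mice, Pou2f3, Trpm5, Avil, Sh2d6 and Gfi1b were higher in both Cpa3Cre/+ libraries than in both Cpa3+/+ libraries, which 24.9% of all tested genes were, and 0 were called by edgeR, as were 0% of all genes. In naive mice, Avil and Sh2d6 were lower in both Cpa3Cre/+ libraries than in all 3 Cpa3+/+ libraries, against 4.54% of all genes, and Pou2f3 and Alox12e higher, against 7.95%. On day 5 none of the 7 tuft genes separated the genotypes, against 15.2% of all genes higher and 14.6% lower in Cpa3Cre/+. The day 5 estimates were 0.79 ± 0.47 log2 units for Trpm5, 0.76 ± 0.49 for Pou2f3, 0.75 ± 0.55 for Sh2d6 and 0.49 ± 0.46 for Avil (SE), with adjusted p-values between 0.5537 and 0.6772 in edgeR and 0% of all genes called. Without Cpa3+/+ day 5 replicate 1 they were 0.05, 0.10, -0.07 and -0.31, and without replicate 2 they were 2.36, 2.02, 2.77 and 2.37, in the same order of genes and with none called.

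The tuft genes were next compared with each other. Over the 23 libraries, Avil and Sh2d6 correlated at r = 0.949 (Spearman's rho 0.925), with a permutation p of 1e-05, the smallest that 100000 permutations can give, and an adjusted p of 5.25e-05 over the 21 pairs. Within Cpa3Cre/+ r was 0.941 (n = 11) and within Cpa3+/+ 0.950 (n = 12). Without the 2 libraries farthest from the median r was 0.919, and for deviations from the group means 0.939, so the relation also held among libraries of the same group. Trpm5 correlated with Avil at r = 0.863 and with Sh2d6 at 0.788, and Pou2f3 with Avil, Trpm5 and Sh2d6 at 0.776, 0.763 and 0.680, with rho between 0.624 and 0.812. All 5 had permutation p-values of at most 0.00034 and adjusted values of at most 0.00119. Gfi1b followed these 4 genes at r between 0.532 and 0.613.

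Dclk1 was the exception among the well-measured genes. It correlated with Pou2f3 at r = 0.587 (rho 0.389, permutation p = 0.00352, adjusted 0.00924), but at 0.309 without the 2 farthest libraries (permutation p = 0.1746), so that the pooled relation rested on them. For deviations from the group means it was 0.566 (permutation test, adjusted p = 0.009106). That permutation took the 23 deviations as independent, although they cancel within each group, so its p-values are too small. With Trpm5, Avil and Sh2d6 its r was 0.349, 0.305 and 0.201, none passing the adjusted threshold. Alox12e, with 80 reads, correlated with none of the other 6 after adjustment over the libraries. For deviations from the group means its r was 0.564 with Dclk1 and 0.573 with Pou2f3 (permutation test, adjusted p = 0.009106 each). The same limit holds for these p-values. In all, 11 of the 21 pairs passed.

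**Figure D4:**
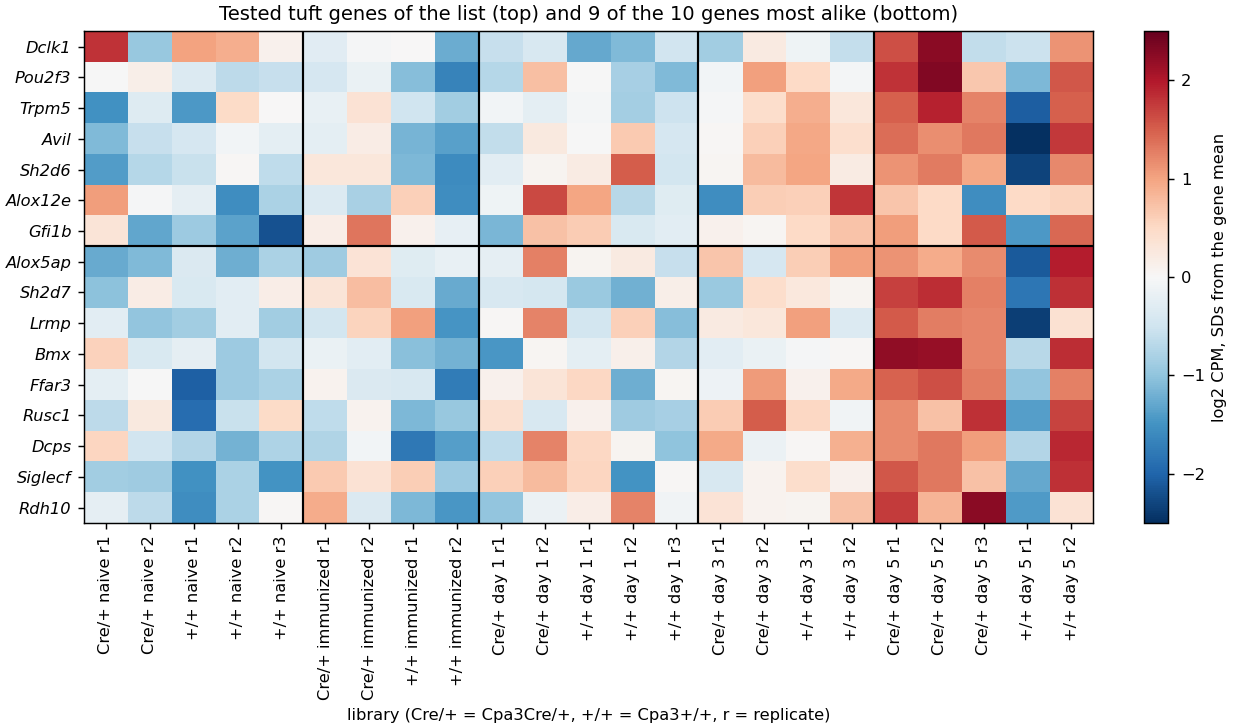
Level of the 7 tested tuft genes (upper rows) and of 9 of the 10 genes most alike to them (lower rows) in the 23 libraries (columns, by state, Cpa3Cre/+ before Cpa3+/+), as log2 CPM in standard deviations from each gene's mean (colour). The 3 Cpa3Cre/+ day 5 libraries and Cpa3+/+ day 5 replicate 2 are high in most rows, and Cpa3+/+ day 5 replicate 1 is low; the lower rows were selected for this likeness.

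Among genes outside the set, likeness was measured as the Pearson correlation, over the 23 libraries, with the mean standardized log2 CPM of Pou2f3, Trpm5, Avil, Sh2d6 and Gfi1b, for 14640 genes with a mean of at least 1 CPM. Of the 10 most alike genes, 9 are given. They included Alox5ap (r = 0.828), the 5-lipoxygenase-activating protein of leukotriene synthesis, and Sh2d7 (0.818), an SH2-domain adaptor. They were followed by Lrmp (0.797), the kinase Bmx (0.795), the short-chain fatty acid receptor Ffar3 (0.795), Rusc1 (0.769), the mRNA decapping enzyme Dcps (0.768), Siglecf (0.759) and the retinol dehydrogenase Rdh10 (0.751). Of these 9, 5 stand in the lists of further tuft genes used here. Siglecf is also made by leukocytes, and the part of leukocyte RNA in the other alike genes was not tested. Of the 26 further tuft genes that could be ranked, 13 had an r over 0.5, against 2.6% of all ranked genes, and their median r was 0.458 against 0.00661. Others did not share the pattern, among them Ptgs1 at 0.00, Plcb2 at -0.06, Itpr3 at -0.27 and Tas1r3 at -0.38.

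Of 36 further tuft genes listed, 28 were tested. On day 5 against immunized, 20 had estimates above 0 and 8 below, with a median of 0.17, and 1 was called, beside 52.2% of all genes above 0 and 1.94% called. This was Bmx, a Tec-family kinase, which rose by 1.31 ± 0.32 log2 units (SE) with an adjusted p of 0.04573 in edgeR. Its levels on day 5 were 7.07, 6.91 and 4.61 CPM in Cpa3Cre/+ and 2.01 and 6.01 CPM in Cpa3+/+ libraries, and in immunized mice 2.55 and 2.44 CPM in Cpa3Cre/+ and 1.73 and 1.62 CPM in Cpa3+/+ libraries. All 5 day 5 values were thus above the immunized values of their own genotype, which 14% of all tested genes were in Cpa3Cre/+ and 26.9% in Cpa3+/+ mice. The call is at the threshold: it was lost in 16 of the 23 fits that left out 1 library each, and without Cpa3+/+ day 5 replicate 2 the estimate was 0.81 (adjusted p = 0.2401 in edgeR).

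By role, the 5 tested genes of taste transduction and its receptors had a median of -0.35 log2 units on day 5 against immunized, with 2 above and 3 below 0 and none called. In this list the phospholipase Plcb2 differed by -0.35 ± 0.44 and the inositol trisphosphate receptor Itpr3, which many epithelial cells make, by -0.46 ± 0.17 (SE). The 7 tested effector genes of lipid mediators and acetylcholine had a median of 0.23, with 6 above and 1 below 0 and none called. In it, Ptgs1 differed by 0.05 ± 0.29 and Ltc4s, the leukotriene C4 synthase that mast cells and macrophages also make, by -1.39 ± 0.49. The 16 tested regulators and surface proteins had a median of 0.24, with 12 above and 4 below 0 and Bmx called. Between genotypes, averaged over the states, 26 of the 28 estimates were above 0, with a median of 0.17 and none called, against 57.5% of all genes. Many of these genes varied with the tuft gene mean, as given above, so they do not count as separate cases. Il25, the tuft cell cytokine itself, had at most 4 reads in any library and was not tested.

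The type 2 response was read through Retnlb and Gsdmc2, epithelial genes induced by IL-13 in mouse intestine, and mast cells through Mcpt1, a protease of mucosal mast cells. On day 5 Gsdmc2 stood at 391, 515 and 60.8 CPM in Cpa3Cre/+ and at 15.5 and 53.0 CPM in Cpa3+/+ libraries, and in immunized mice at 0.291 and 5.12 CPM in Cpa3Cre/+ and at 3.25 and 5.59 CPM in Cpa3+/+ libraries. Retnlb on day 5 stood at 5.66, 6.91 and 0.377 CPM in Cpa3Cre/+ and at 0 and 0.601 CPM in Cpa3+/+ libraries, and at 0 in all 4 immunized libraries. The library with the least tuft gene signal, Cpa3+/+ day 5 replicate 1, was also the one without Retnlb on day 5. Its Gsdmc2 level of 15.5 CPM nevertheless lay above all 4 immunized values. Cpa3Cre/+ day 5 replicate 3 held only 0.377 CPM of Retnlb, where 3 reads equal 0.282 CPM, yet 15.6 CPM of Trpm5. Against immunized, day 5 Gsdmc2 differed by 4.96 ± 1.40 log2 units (SE), with an adjusted p of 0.0774 in edgeR. Of the 18 genes of the type 2 list, which includes the cytokines, 13 were tested, 10 were above and 3 below 0 with a median of 0.34, and none was called. Il13 had at most 8 reads in any library.

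Over the 23 libraries, 28 relations of a tuft gene with Retnlb, Gsdmc2, Mcpt1 or Cpa3 were computed, and 2 passed after adjustment. Trpm5 correlated with Retnlb at r = 0.658 (rho 0.544, permutation p = 0.00054, adjusted 0.00812). Its r was 0.752 within Cpa3Cre/+ and 0.524 within Cpa3+/+, and 0.446 without the 2 farthest libraries (permutation p = 0.04325). Pou2f3 correlated with Retnlb at r = 0.681 (rho 0.465, permutation p = 0.00058, adjusted 0.00812), with 0.755 within Cpa3Cre/+ and 0.486 within Cpa3+/+. Without the 2 farthest libraries its r was 0.325 (permutation p = 0.1503), so this relation rested on those libraries. By rank, both had an adjusted p of 0.1834 and did not pass. For deviations from the group means, 0 of the 28 relations passed, and Retnlb was at 0 reads in many libraries.

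With Gsdmc2, r was 0.554 for Pou2f3 and 0.537 for Trpm5 (permutation p = 0.00579 and 0.00835, adjusted 0.05102 each), with rho of 0.424 and 0.443. With Mcpt1, pooled r was 0.286 for Pou2f3, 0.382 for Trpm5, 0.387 for Avil and 0.279 for Sh2d6, none passing. Within a genotype these were higher, at 0.645 to 0.770 in Cpa3Cre/+ and 0.326 to 0.546 in Cpa3+/+ libraries. With Cpa3, pooled r of the same 4 genes lay between -0.04 and 0.18, within Cpa3Cre/+ between 0.400 and 0.502 and within Cpa3+/+ between 0.436 and 0.50. Mcpt1 itself rose on day 5 against immunized by 3.14 ± 0.54 log2 units (SE, adjusted p = 0.01053 in edgeR), and was lower in Cpa3Cre/+ than in Cpa3+/+ over the states by -2.31 ± 0.35 (adjusted p = 0.02829 in edgeR). Leaving out 1 library each, the first call was lost in 3 and the second in 15 of 23 fits, with adjusted p-values of up to 0.06542 and 0.4151 in edgeR. On day 5 it stood at 44.6, 67.9 and 53.8 CPM in Cpa3Cre/+ and at 59.6 and 397 CPM in Cpa3+/+ libraries. The Cpa3Cre/+ libraries had Trpm5 levels of 15.6 to 21.3 CPM at these Mcpt1 levels, and Cpa3+/+ day 5 replicate 1 had 3.46 CPM of Trpm5 at 59.6 CPM of Mcpt1. Mcpt1 itself differed by genotype, so its levels are not directly comparable between them. For deviations from the group means, r of the same 4 genes was 0.292 to 0.574 with Mcpt1. It was 0.283 to 0.501 with Retnlb and -0.117 to 0.288 with Gsdmc2, none passing.

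**Figure D5:**
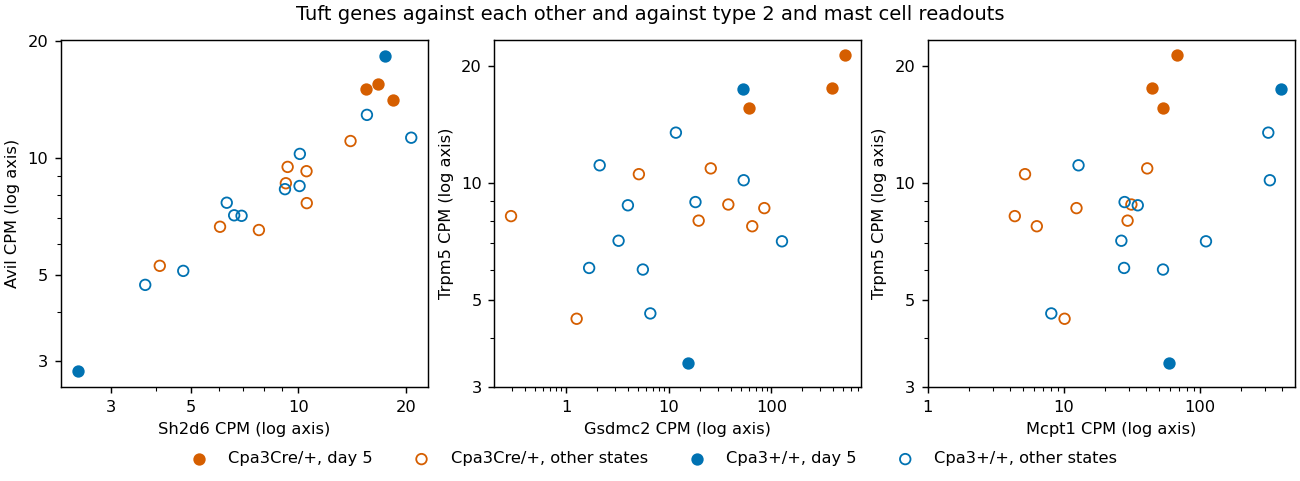
Avil against Sh2d6 (left), Trpm5 against Gsdmc2 (middle) and Trpm5 against Mcpt1 (right) in the 23 libraries, in CPM on log axes, with Cpa3Cre/+ in orange, Cpa3+/+ in blue and day 5 libraries filled. Avil and Sh2d6 fall along a line (r = 0.949), and in the right panel the 3 Cpa3Cre/+ day 5 libraries lie at 44.6 to 67.9 CPM of Mcpt1, with Cpa3+/+ day 5 replicate 2 at 397 CPM.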

How the data were processed

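Per the labels' protocols, total RNA of jejunum (PureLink RNA Mini kit) was made into stranded Illumina libraries. Per the submitters' processing notes, STAR and featureCounts (Subread 1.5.1) were used with mm10/GRCm38; the strand setting and annotation release are not given in the sources used here. The authors deposited raw counts per Ensembl gene, used as they were. Symbols and positions came from GENCODE vM21 (GRCm38) for 55141 of 55487 identifiers.

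Genes were filtered with filterByExpr by group (17236 left), scaled by TMM and tested with edgeR 4.0.16 in R 4.3.3 (robust quasi-likelihood fit, 10 group means, sex as covariate, 12 residual degrees of freedom, biological coefficient of variation 28.6%), two-sided, with Benjamini-Hochberg adjustment over all genes. The standard error is the fold change over the square root of F. Correlations used log2 CPM with a prior count of 2 and 100000 two-sided permutations (SciPy 1.17.1). Alternatives were DESeq2 size factors, DESeq2 1.42.0, no filter, no sex covariate, female libraries, a replicate block, an epithelial covariate, and leaving out each library. Added after seeing the data were a fit without the 3 libraries apart and a muscle and nerve covariate. The edgeR and correlation steps were tested on simulated data. Depth was 5476308 to 19342046 counts, and floors cover counting error only.

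Each library was grouped by its genotype, treatment and time labels. The tuft genes and the other lists were chosen with earlier results of these data known. Named genes are the 9 tuft genes, the readouts Retnlb, Gsdmc2, Il13, Mcpt1 and Cpa3, the 10 most alike genes (1 is not reported here), and at most 4 per further list, those called or else the most abundant; Il25, Chil3 and the correlations of Ptgs1, Plcb2, Itpr3 and Tas1r3 were added after their values were seen.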

Additional observations from a re-analysis of the deposited data

Results flagged for a closer look

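The genotype difference of Avil and Sh2d6 had opposite signs in naive and immunized mice in every library: both Cpa3Cre/+ libraries lay below all 3 Cpa3+/+ libraries when naive and above both when immunized. The log2 fold change of Cpa3Cre/+ over Cpa3+/+ was higher in immunized than in naive mice by 1.11 for Avil and by 1.81 for Sh2d6. This difference was not tested. Of all tested genes, 4.54% were lower in both Cpa3Cre/+ libraries when naive and 24.9% higher when immunized. The share of genes doing both was not computed. Avil and Sh2d6 varied together (r = 0.949), so they do not count as separate cases. The naive Cpa3Cre/+ group included replicate 1, which stood apart over all genes with an epithelial sum of 2102 CPM.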

How the results depend on the processing

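No tuft gene was called in any of the 19 comparisons with DESeq2 size factors, female libraries only or the replicate block. On day 5 against immunized, 1 gene (Pou2f3) was called without the sex covariate, with the epithelial covariate, with the muscle and nerve covariate and with DESeq2, 2 (Dclk1 and Pou2f3) without the 3 libraries apart, 3 (Avil, Pou2f3 and Sh2d6) without the filter, and 0 to 2 when leaving out 1 library each. Without the 3 libraries apart, 2 (Dclk1 and Pou2f3) were also called within Cpa3Cre/+ on day 5. Without the filter, 1 was called between genotypes on day 5 (Chil4, on the reads of a single library), 1 within Cpa3+/+ on day 1 and 1 on day 3 (Sh2d6 each). The cause was not tested. Correlations passing numbered 13, again 13 with DESeq2 size factors, 12 for deviations from group means (all of them pairs of tuft genes, with Alox12e in 2), and 10 to 16 when leaving out 1 library. The permutation p-values of the deviations are too small, so their count of 12 may be too high.

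Some estimates changed sign with the setting. Between genotypes over the states, Avil stood at -0.046 and Sh2d6 at -0.053 in female libraries, Avil at -0.0036 with the muscle and nerve covariate, and Alox12e, -0.32 otherwise, at 0.082 without the sex covariate. On day 3 against immunized, Dclk1 stood at -0.19 in female libraries and -0.22 with that covariate, and Alox12e at -0.78 in female libraries. Between genotypes on day 5, Alox12e stood at 0.059 without the 3 libraries apart and 0.15 with that covariate. Leaving out 1 library each gave -0.072 to 0.39 (Trpm5), -0.15 to 0.38 (Avil), -0.10 to 0.47 (Sh2d6) and -0.98 to 0.50 (Alox12e) between genotypes over the states; -0.31 to 2.37 (Avil), -0.070 to 2.77 (Sh2d6), -0.38 to 3.18 (Gfi1b) and -0.92 to 0.057 (Alox12e) between genotypes on day 5; -0.28 to 0.24 (Dclk1), -0.31 to 0.28 (Gfi1b) and -0.85 to 3.23 (Alox12e) on day 3; and -0.036 to 1.38 (Sh2d6) and -1.02 to 0.77 (Gfi1b) on day 5 against immunized.

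Replicate numbers did not pair the samples: the deviations of 93 same-numbered pairs across groups correlated at a median of -0.00547 (-0.314 to 0.564), and with the replicate block Pou2f3 differed on day 5 by 1.59 (adjusted p = 0.06 in edgeR). Over all genes, day 5 against immunized called 334, and 309 with DESeq2 size factors, 906 without the filter, 495 without the sex covariate, 82 in female libraries, 149 with the replicate block, 1324 with the epithelial covariate, 3294 without the 3 libraries apart, 508 with the muscle and nerve covariate, 957 with DESeq2, and 28 (without Cpa3+/+ immunized replicate 2) to 1305 (without Cpa3Cre/+ day 5 replicate 3) when leaving out 1 library. Between genotypes over the states it was 5 genes, 49 without the filter, 8 with DESeq2, 1 with the epithelial covariate, and 0 in female libraries, with the replicate block, without the 3 libraries apart and with the muscle and nerve covariate, and 0 to 7 when leaving out 1 library. The Bmx call on day 5 was also lost in female libraries and with the replicate block, the Mcpt1 call on day 5 in female libraries, and the genotype calls of Cpa3 and Mcpt1 in female libraries, with the replicate block, without the 3 libraries apart and with the muscle and nerve covariate, that of Mcpt1 also with the epithelial covariate. Most groups held 2 libraries, so intervals are wide, and Gnat3, Chil4, Alox12e, Gfi1b and Il25 were limited by depth.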
